A study of Mus musculus with 1600 samples.

Results

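Cells labelled as mouse hind limb with much and with little mitotic RNA were compared within each of 3 embryonic stages, by their level of 6 mitotic genes. The score of a cell was the summed level, in CPM (counts of a gene with each cell scaled to a total of 1000000 counts), of Top2a, Mki67, Cenpf, Cdk1, Ccnb1 and Tpx2. Within each stage the cells were ranked by score and cut into 4 groups of nearly equal size. The group with the highest scores (A) was set against the group with the lowest (B), and genes outside the score were compared. A and B held 29 cells each at E10.5, 39 each at E12.5, then 50 each at E15.5. These 236 cells came from 477 cells with at least 1000 detected genes and from 1600 samples in the series, of which 1120 were not analysed here. Because the cells were selected on values measured in the same cells, every difference between A and B below is a description and carries no test.

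A cell that divides first copies its DNA in S phase and then, in G2 phase and mitosis, condenses its chromosomes, builds a spindle of microtubules and attaches each chromosome to it through a protein complex at the centromere, the kinetochore. Genes for these late steps are transcribed in a wave that peaks between S phase and mitosis, under the DREAM and MuvB complexes with B-Myb and FoxM1, which act on promoters through short elements called CHR and on CCAAT boxes bound by NF-Y. Genes for DNA copying are transcribed earlier, around the passage from G1 into S phase, through E2F factors. In the limb, proliferation is broad in the early bud and becomes limited as cartilage, tendon, muscle and connective tissue differentiate.

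All embryos were C57BL/6 and carried the SCX-GFP transgene, a fluorescent reporter of scleraxis, a tendon progenitor factor, and no sort for the reporter is named. Limbs of littermates were combined at each stage, which leaves 1 sample per stage and no biological replicate. The 480 labelled cells (120 at E10.5, 160 at E12.5, then 200 at E15.5, the number being the day of gestation) were isolated with the Fluidigm C1, which traps single cells in a chip. They form 12 library pools with 40 cells in each: pools 1 to 3 belong to E10.5, pools 4 to 7 to E12.5, and the rest to E15.5. The pools hold different cells, so their spread includes differences between cells, and they are not biological replicates. The cells labelled E10.5 hind limb went against that label. Tbx5, a forelimb gene, stood at 67.9 CPM with a count in 87 of 119 cells at E10.5, against 0.739 CPM at E12.5, then 6.32 CPM at E15.5. Pitx1, a hind limb gene, had no count in any of the 119 cells labelled E10.5, against 169 CPM at E12.5, then 68.7 CPM at E15.5. The groups were formed within a stage, so no value of A against B mixes these cells with others, but statements over 3 stages rest on them, and agreement of E12.5 with E15.5 alone is given beside them.

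Count totals of the kept cells ran from 2681 to 1185267. Cells of A were deeper than cells of B, with median totals of 287470 against 228992 at E10.5, 284607 against 187558 at E12.5, then 271390 against 169944 at E15.5. With cells thinned to 50000 counts, which left out 4 shallower cells of B at E10.5, 1 of A and 4 of B at E12.5, and 4 of A and 2 of B at E15.5, A had more detected genes, at medians of 3598 against 3337, 3594 against 3061 and 3703 against 3457.5. With cells thinned before scoring and summing, 100 genes were higher and 58 lower at all 3 stages, of which 53 and 18 were among those called at full depth. No doublet caller was run and no cell was removed as a doublet. Cells with 3 or more markers of muscle, skin, endothelium, immune cells or glia at 50 CPM or more, or with 5% of counts in globin and other red cell genes, numbered 2 in A and 1 in B at E10.5, 2 and 8 at E12.5, then 16 and 8 at E15.5.

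The 3 stages differed in what the lowest group was. The median score in B was 1190 CPM at E10.5, where every cell had counts of the score genes, 90.2 CPM at E12.5, then 61.1 CPM at E15.5. The median score in A was 4809, 7121 and 4940 CPM. The last cell taken into A and the next below it had 4133.5 and 4047.31 CPM at E10.5, 5049.67 and 4898.02 CPM at E12.5, then 3036.44 and 2957.79 CPM at E15.5. The last cell in B and the next above it had 1770.66 and 1802.38, 250.28 and 263.284, and 108.818 and 115.248 CPM. The E10.5 comparison therefore set cells with much mitotic RNA against cells with less, while the later 2 set them against cells with few counts of the score genes.

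**Figure D1:**
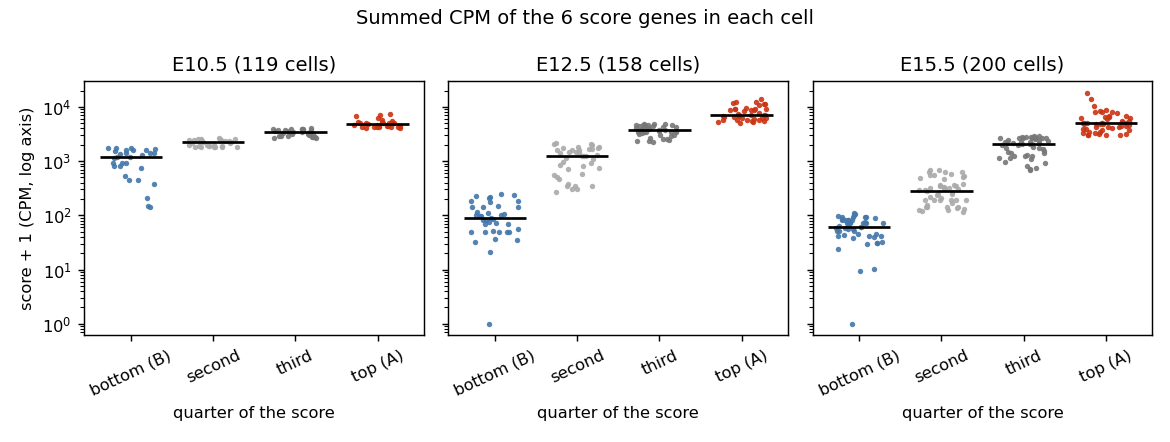
Score of each kept cell (summed CPM of the 6 score genes plus 1, log axis) by group of the score, in 1 panel per stage, with black lines at the medians. The lowest group of E10.5 has a median of 1190 CPM, while those of E12.5 and E15.5 have medians of 90.2 and 61.1 CPM.

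Counts were summed over the cells of a group and turned into CPM, and a gene was called where log2((A CPM + 5)/(B CPM + 5)) reached 1 in size, a difference of 2 times or more on that scale. Of 13119 genes compared, 2030 (15.47%) were called higher in A and 1284 (9.787%) lower at E10.5. At E12.5, 1578 genes (12.03%) were higher and 2029 (15.47%) lower, and at E15.5, 1474 (11.24%) were higher and 1418 (10.81%) lower. Calls that held the same sign at all 3 stages were far fewer, 105 genes higher (0.8004%) and 47 lower (0.3583%). Across genes, the log2 ratios of E12.5 and E15.5 had a Pearson correlation of 0.240, while those of E10.5 had 0.00205 with E12.5 and 0.00899 with E15.5. The points of these correlations are 13119 genes measured in the same cells of each stage, and they share no cells between stages.

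Genes of mitosis were the largest group of the lists among the calls that agreed over the stages. Of the 105 genes called higher at all 3 stages, 30 belonged to 5 lists of mitotic genes (mitotic kinases and entry, anaphase-promoting complex and checkpoint, kinetochore and centromere, spindle and motors, chromosome condensation and cytokinesis). These 30 are 30.3% of the 99 list genes compared and 28.6% of the 105 genes called, where the share over all genes was 0.8004%. A stood above B in every library pool for 38 of the 105 genes and in 10 or more of the 12 pools for 72. Of the 47 genes called lower, 1 was lower in every pool and 9 in 10 or more. Which genes agreed depended on how the cells were split. With the score taken as a sum of log2(CPM + 1), 97 genes were higher and 42 of them were among the 105. Under that score 35 were lower and 9 of them were among the 47. Against the third group, next below A, in place of B, an alternative chosen after seeing the data, 23 were higher and 5 of them were among the 105. There 38 were lower and 1 of them was among the 47.

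Promoters of some of the genes named at all 3 stages are shown first, with and without the letters named above, so that both can be seen. Each line is the 150 bases before an annotated start, 5′ to 3′ on the strand of the gene, from RefSeq (build GRCm38.p6), with capitals marking a CHR (TTTGAA or TTCGAA, either strand) or a CCAAT box (CCAAT, either strand). The windows are chr19:37376232-37376381 for Kif11, chr2:129297213-129297362 for Ckap2l, chr2:113848662-113848811 for Arhgap11a, chr7:80294326-80294475 for Prc1 and chr11:106999526-106999675 for Kpna2. The window of Hmmr is chr11:40733438-40733587. Cdk1 (chr10:69352913-69353062) and Top2a (chr11:99024190-99024339) are score genes, and Nusap1 (chr2:119618148-119618297) was higher in A. Kctd12 (chr14:102982638-102982787) and Chmp2b (chr16:65562763-65562912) were lower in A.
Kif11: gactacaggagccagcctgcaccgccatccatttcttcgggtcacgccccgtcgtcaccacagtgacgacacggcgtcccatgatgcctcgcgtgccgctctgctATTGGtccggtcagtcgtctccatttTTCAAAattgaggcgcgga
Ckap2l: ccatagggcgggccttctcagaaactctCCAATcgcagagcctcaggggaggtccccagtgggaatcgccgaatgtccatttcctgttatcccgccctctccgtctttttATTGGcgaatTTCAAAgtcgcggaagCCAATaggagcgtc
Arhgap11a: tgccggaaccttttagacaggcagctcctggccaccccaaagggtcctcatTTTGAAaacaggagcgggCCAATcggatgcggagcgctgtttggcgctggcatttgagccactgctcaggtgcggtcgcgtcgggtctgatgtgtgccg
Prc1: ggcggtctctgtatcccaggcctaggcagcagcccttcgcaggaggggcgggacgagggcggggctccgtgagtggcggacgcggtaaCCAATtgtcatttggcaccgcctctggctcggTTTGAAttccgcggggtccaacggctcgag
Kpna2: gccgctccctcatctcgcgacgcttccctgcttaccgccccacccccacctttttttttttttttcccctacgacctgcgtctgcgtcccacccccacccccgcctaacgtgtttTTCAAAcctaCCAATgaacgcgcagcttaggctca
Hmmr: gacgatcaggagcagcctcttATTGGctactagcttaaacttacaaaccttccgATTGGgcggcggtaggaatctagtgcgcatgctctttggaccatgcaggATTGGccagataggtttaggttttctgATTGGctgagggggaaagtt
Cdk1: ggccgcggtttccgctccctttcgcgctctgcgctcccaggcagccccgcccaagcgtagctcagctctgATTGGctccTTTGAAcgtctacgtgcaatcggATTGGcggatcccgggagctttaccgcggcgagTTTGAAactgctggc
Top2a: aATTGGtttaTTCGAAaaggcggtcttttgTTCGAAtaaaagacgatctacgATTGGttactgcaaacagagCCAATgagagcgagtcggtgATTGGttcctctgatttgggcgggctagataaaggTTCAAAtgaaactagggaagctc
Nusap1: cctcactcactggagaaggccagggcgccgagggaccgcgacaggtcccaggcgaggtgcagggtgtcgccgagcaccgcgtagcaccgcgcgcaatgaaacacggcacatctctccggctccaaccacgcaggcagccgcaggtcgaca
Chmp2b: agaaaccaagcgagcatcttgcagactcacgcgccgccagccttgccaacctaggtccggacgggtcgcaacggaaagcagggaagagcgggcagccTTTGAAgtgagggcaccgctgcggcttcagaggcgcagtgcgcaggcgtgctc
Kctd12: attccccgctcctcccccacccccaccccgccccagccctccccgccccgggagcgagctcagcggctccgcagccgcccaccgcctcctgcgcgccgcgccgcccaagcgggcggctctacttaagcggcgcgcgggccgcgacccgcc
The lines of Kif11, Ckap2l, Arhgap11a, Prc1 and Kpna2, none of them a score gene, carry a CHR and a CCAAT box together, which for Prc1 holds at the second of its 2 annotated starts. Hmmr shows 4 CCAAT boxes and no CHR in this stretch. Nusap1 and Kctd12 show neither, and Chmp2b, called lower, shows a CHR. The lines were chosen after their letters were seen: of the 11 matched genes among the 12 named as higher, 5 carried both in the stretch of 150 bases, 3 a CCAAT box alone (Hmmr, Cenpe and Plk1) and 3 neither (Casc5, Sgol2 and Nusap1). Of the 5 named as lower, Chmp2b and 1 of the 2 starts of Zdbf2 carried a CHR there and none a CCAAT box.

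Across windows of 300 bases (250 before a start and 50 after it), 85 of the 105 genes called higher were matched to 96 RefSeq promoters. A CHR was found in 38 of the 96 (39.6%) and a CCAAT box in 58 (60.4%), against 13.9% and 37.8% of the 13136 promoters of all genes compared. Both occurred together in 32.3% of the promoters of genes called higher and in 5.76% of all. Among the called genes of the mitotic lists, 27 promoters, the shares were 66.7% with a CHR, 74.1% with a CCAAT box and 55.6% with both. Mitotic list genes that were not called were not scanned as a group, so whether these shares go with the calls was not tested. Called genes outside those lists had a CHR in 29.0% and a CCAAT box in 55.1% of 69 promoters. Of the 45 promoters of genes called lower, 8.89% held a CHR, 35.6% a CCAAT box and 0 both. An E2F motif (TTTCCCGC or TTTGGCGC, either strand) was found in 41.2% of 34 promoters of a list of DNA replication genes, in 4.17% of those of genes called higher and in 2.79% of all. A TATA motif (TATAAA, either strand), shown for comparison, was found in 8.33% of promoters of genes called higher and in 7.18% of all. A CHR and a CCAAT box can share an end base, and were counted separately. These are matches of letters, not measured binding, and over all 32851 promoters of the table the shares were 19.2% for a CHR and 37.4% for a CCAAT box.

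**Figure D2:**
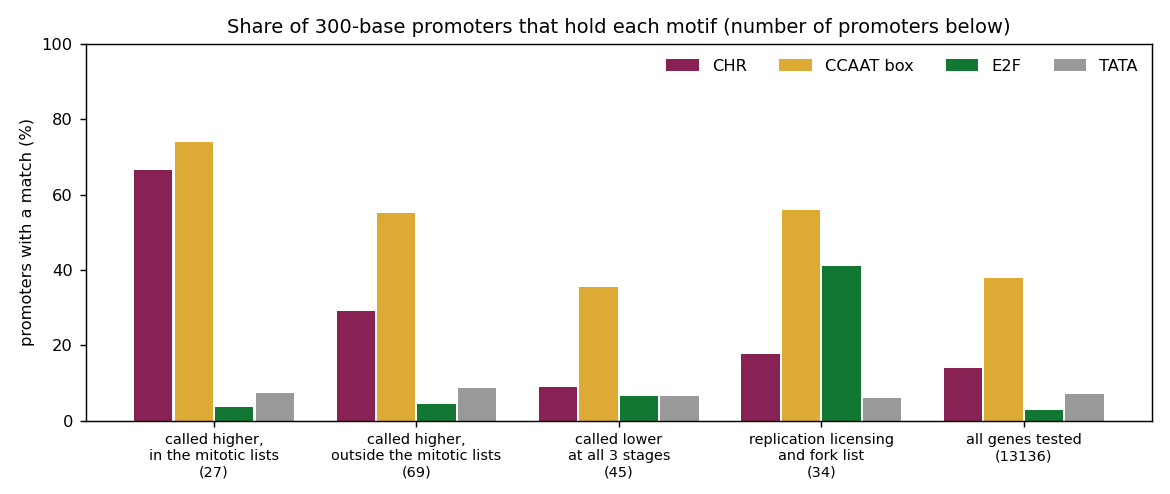
Share of 300-base RefSeq promoters holding a CHR, a CCAAT box, an E2F or a TATA motif (vertical axis, %), for 5 groups of genes with the number of promoters under each name. The bar for CHR stands at 66.7% for called mitotic list genes and at 13.9% for all genes compared, and the E2F bar is highest for the replication list, at 41.2%.

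Of all genes that met the floors on level, the one whose smallest stage ratio was largest was Hmmr, of the spindle list. Hmmr (chr11:40701395-40733422, minus strand, mm10) encodes a protein that binds microtubules and the spindle. Its level over the cells of A was 285 CPM at E10.5, 259 CPM at E12.5, then 267 CPM at E15.5, and over the cells of B it was 42.7, 2.59 and 2.94 CPM. In pools 1 to 3 it stood at 339, 245 and 271 CPM in A against 69.1, 50.3 and 3.86 CPM in B. In pools 4 to 7 A held 236, 294, 239 and 247 CPM and B 3.27, 2.41, 2.26 and 2.03 CPM. In pools 8 to 12 A held 546, 155, 169, 160.0 and 318 CPM, and B 2.97, 1.38, 4.79, 2.26 and 4.64 CPM. Every pool of A was above every pool of B. Single cells overlapped at E10.5, where A ran from 0 through a median of 160.1 to 1299 CPM and B from 0 through a median of 4.02 to 1214 CPM, and 4 of 29 cells of B lay above the median of A. At E12.5 and E15.5 no cell of B reached the median of A. The log2 ratios of Hmmr were 2.603, 5.12 and 5.10, a mean of 4.27 ± 1.45 (SD over 3 stages). Thinned to equal depth, Hmmr was detected in 69.0% of A and 28.0% of B cells at E10.5, in 78.9% and 8.57% at E12.5, then in 84.8% of A and 6 of 48 cells of B at E15.5.

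Kif11, the kinesin that pushes spindle poles apart (chr19:37376403-37421859, plus strand), had 222 against 35.8 CPM in A and B at E10.5, 259 against 6.71 CPM at E12.5, then 144 against 4.41 CPM at E15.5. Its log2 ratios were 2.48, 4.50 and 3.99 (mean 3.65 ± 1.05), and A was higher in all 12 pools. Ckap2l, a protein of the mitotic spindle (chr2:129268210-129297212, minus strand), had 133.0 against 21.7, 210.1 against 2.59 and 186 against 4.71 CPM, with ratios of 2.37, 4.82 and 4.30. Nusap1, which bundles spindle microtubules (chr2:119618298-119651244, plus strand), was the gene with the largest ratio at E12.5 among these, 5.38, at 468 against 6.36 CPM. At E12.5 all 39 cells of A held more Nusap1 than the median cell of B, and the lowest of them had 125 CPM. At E10.5 its ratio was 1.72, from 73.2 against 18.8 CPM, and 5 of 29 cells of B passed the median of A. Prc1, which crosslinks the microtubules of the midzone before cytokinesis (chr7:80294450-80316259, plus strand), had 251 against 71.1, 508 against 14.1 and 378 against 9.71 CPM. Of the 27 spindle and motor genes compared, 13 were higher in A at E10.5, 26 at E12.5, then 24 at E15.5, none was lower, and 12 were higher at all 3. The medians of their log2 ratios were 0.96, 3.87 and 3.39, beside medians over all genes of 0, -0.02 and -0.01. Among all genes 15.47%, 12.03% and 11.24% were called higher.

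**Figure D3:**
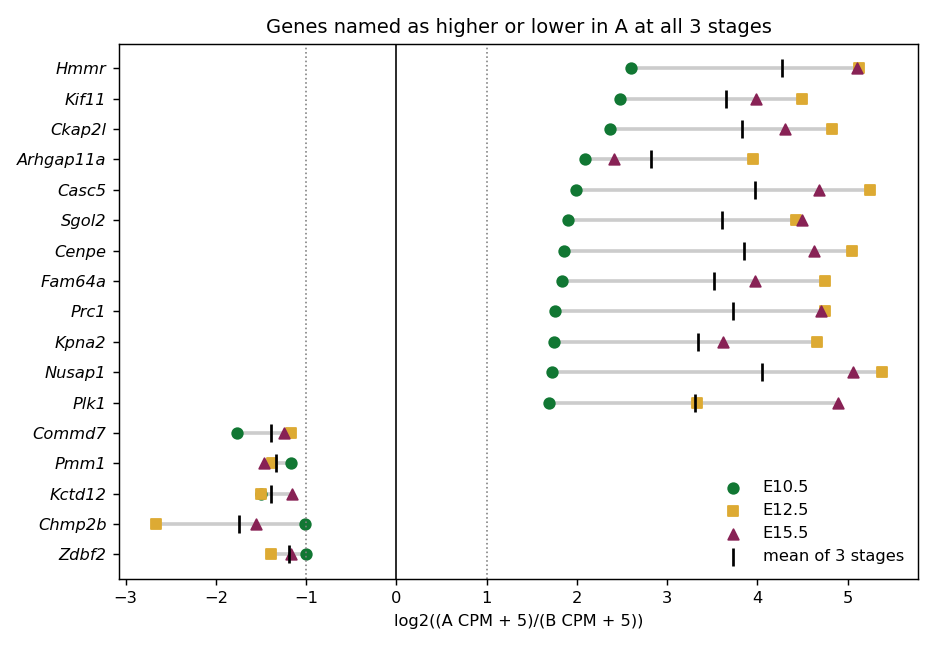
Log2 ratio of A over B (horizontal axis, 5 CPM added to each) at each stage for the 12 genes named as higher and the 5 named as lower at all 3 stages, with the mean as a black mark and dotted lines at the ratios that make a call. In all 12 genes named as higher the E10.5 point lies lowest, from 1.69 for Plk1 to 2.603 for Hmmr, and the means of the 5 genes named as lower run from -1.74 to -1.19.

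At the kinetochore, Cenpe, a motor that carries chromosomes to the spindle equator (chr3:135212537-135273611, plus strand), was the most abundant gene in this group. It had 601.4 CPM in A and 162 CPM in B at E10.5, 719.5 and 16.8 CPM at E12.5, then 566.6 and 18.1 CPM at E15.5. Among single cells at E10.5, A ran from 0 through a median of 382 to 1827 CPM and B from 0 through a median of 52.4 to 1075 CPM, so that the groups overlapped and 5 cells of B passed the median of A. Casc5, now called Knl1, a kinetochore scaffold (chr2:119047119-119105501, plus strand), had 87.5 against 18.3, 216 against 0.824 and 196 against 2.84 CPM, with ratios of 1.99, 5.24 and 4.68. At E10.5 most of its few counts in B came from 1 cell (79.5%). Sgol2, a shugoshin that protects centromeric cohesion, had 85.4 against 19.2, 150.2 against 2.24 and 179.9 against 3.24 CPM. All 18 kinetochore and centromere genes were called higher at both later stages and 4 at E10.5, with median ratios of 3.81, 2.98 and 0.30. Among all genes 12.03% and 11.24% were called higher at the later stages and 15.47% at E10.5.

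Kinases and regulators of entry into mitosis were also called higher more often at the later stages. Plk1, the polo kinase of mitotic entry and centrosome maturation (chr7:122159439-122169873, plus strand), had 209 against 61.3 CPM at E10.5, 303 against 25.5 CPM at E12.5, then 158 against 0.490 CPM at E15.5. The last value rests on 5 counts in 50 cells, with an exact Poisson 95% interval of 0.159 to 1.14 CPM that covers counting error only. Bub1b, a kinase-like protein of the spindle checkpoint, had 174 against 77.2, 209 against 0.706 and 175 against 1.37 CPM. Foxm1, the transcription factor of the mitotic wave, had 129 against 42.0, 129 against 1.29 and 136 against 0.981 CPM, ratios of 1.51, 4.42 and 4.55. Ccnb2, cyclin B2, had 108 against 35.6, 256 against 7.89 and 320.4 against 6.57 CPM. Of 22 genes in this list, 11 were higher at E10.5, 22 at E12.5, then 21 at E15.5, and 11 at all 3 stages. By stage, 15.47%, 12.03% and 11.24% of all genes were called higher. Cdc25b, a phosphatase that activates Cdk1 and named here after its values were seen, differed in sign, with ratios of -1.53 at E10.5 and 2.99 and 3.63 later. Cdca8, a subunit of the chromosomal passenger complex and the largest ratio among genes named for E12.5, had 424 against 2.59 CPM there but 221 against 219.9 CPM at E10.5. Among genes that met the floors at E10.5, the 5 largest ratios higher in A were of Pde4d, Vps33a, Tmem123, Klhl18 and Arid5b. The 5 largest lower in A were of Golt1b, Serpinb6a, Six4, Plcg2 and Rbm41.

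The anaphase-promoting complex and checkpoint list was mixed, with 2, 8 and 7 of 12 genes higher, 1, 0 and 0 lower, and 1 higher at all 3 stages. Its 2 calls at E10.5 are near the 15.47% of all genes called higher there. Ube2c, its ubiquitin-conjugating enzyme, had 151 against 78.1 CPM at E10.5, 665 against 25.8 CPM at E12.5, then 364 against 9.42 CPM at E15.5. Cdc20, its activator, had 117 against 91.0, 249.6 against 5.53 and 151 against 4.51 CPM. Pttg1, securin, the inhibitor of separase, was lower in A at E10.5 (26.8 against 68.9 CPM) and had ratios of -0.35 and 0.12 later. In the condensation and cytokinesis list, 2, 16 and 16 of 20 genes were higher, the first a smaller share than over all genes, and those higher at all 3 were Anln (anillin) and Racgap1, both of cytokinesis, the latter named after its values were seen. Ncapg, a condensin subunit, had 216 against 155 CPM at E10.5, 288 against 7.65 CPM at E12.5, then 193 against 6.18 CPM at E15.5.

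Several genes outside the lists stood beside these. Kpna2, importin alpha, which carries cargo into the nucleus and releases spindle factors in mitosis, was the most abundant of the 12 genes named as higher at E12.5 and E15.5, at 505 against 147 CPM, 909.8 against 31.1 CPM and 733 against 55.3 CPM. Among single cells at E12.5, Kpna2 in A ran from 0 through a median of 682 to 2437 CPM and B from 0 through a median of 0 to 197 CPM, and no cell of B reached the median of A. Arhgap11a, a GTPase-activating protein (chr2:113831492-113848661, minus strand), had 110.2 against 22.0, 92.1 against 1.29 and 73.1 against 9.71 CPM. It was carried by few cells at E10.5, where the median of A was 0 CPM and 1 cell gave 39.1% of its counts. Fam64a, now called Pimreg, had 119.5 against 29.9, 176 against 1.77 and 76.6 against 0.196 CPM, the last from 2 counts (95% interval 0.0238 to 0.709 CPM).

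**Figure D4:**
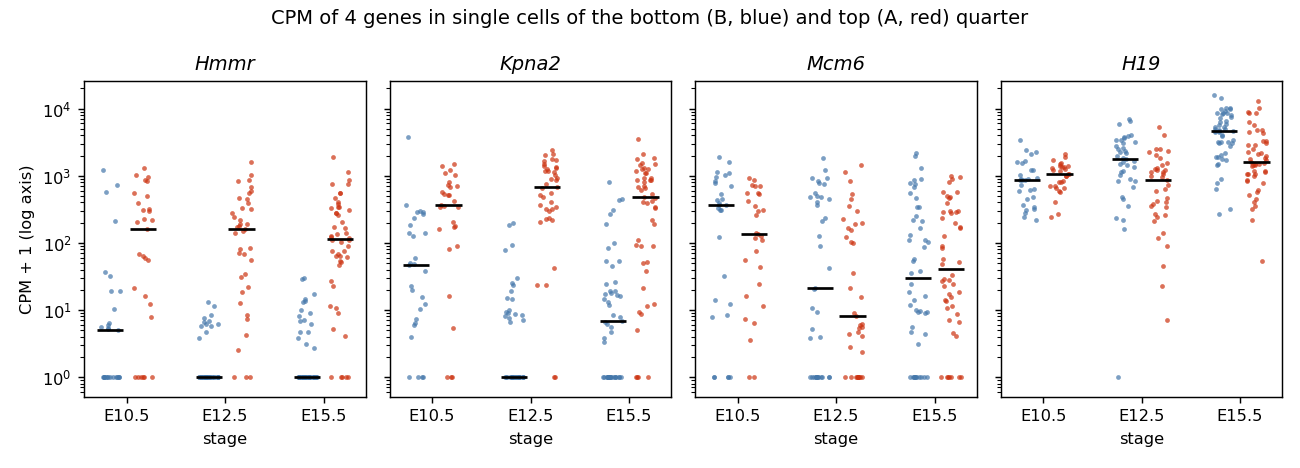
CPM plus 1 (log axis) of Hmmr, Kpna2, Mcm6 and H19 in single cells of B (blue) and A (red) at each stage, with black lines at the medians. Hmmr and Kpna2 separate the groups most at E12.5 and E15.5, while the groups overlap widely in Mcm6 at every stage and in H19 at E10.5.

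Genes for copying DNA did not follow the mitotic genes at E10.5 and did so only in part later. Of 37 genes of replication licensing and the fork, 1, 10 and 12 were called higher and 4, 6 and 2 lower at the 3 stages, with median ratios of -0.34, 0.16 and 0.67. Shares over all genes were 15.47%, 12.03% and 11.24% higher and 9.787%, 15.47% and 10.81% lower. The later higher calls exceeded these, and the lower calls at E10.5 and E12.5 lay near them. The summed level of the list was higher in A in 0 of 3 pools at E10.5, 3 of 4 at E12.5, then 4 of 5 at E15.5. It was highest in the lowest group at E10.5, at 7029 CPM in B, 6708 and 5906 CPM in the second and the third group and 5864 CPM in A. At E12.5 it was highest in the middle groups, 3278, 5431, 5486 and 4029 CPM in the same order, and at E15.5 in the third, 1955, 3026, 4125 and 3410 CPM. The 5 mitotic lists were instead highest in A at every stage. Kinases and entry genes summed to 2048, 2598, 2669 and 3323 CPM at E10.5, 419, 1367, 2636 and 4745 CPM at E12.5, then 336, 557, 1844 and 4119 CPM at E15.5. The rise was least at E10.5 in the condensation and cytokinesis list, with 8030, 7749, 8138 and 8674 CPM and A higher in 2 of 3 pools.

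Ung, the uracil-DNA glycosylase that removes uracil near the replication fork, was called lower in A at all 3 stages, alone in its list. It had 46.2 CPM in A and 146 CPM in B at E10.5, 8.14 and 22.2 CPM at E12.5, then 0.598 and 14.9 CPM at E15.5. At E10.5 the median cell held 0 CPM in A and 110 CPM in B, and 5 of 29 cells of A passed the median of B. At E12.5 1 cell gave 52.4% of the counts in B, and both medians were 0. Mcm6, a subunit of the MCM helicase that is loaded in G1 (chr1:128331590-128359664, minus strand), had 275 against 584.2 CPM at E10.5, 131 against 299.8 CPM at E12.5, then 228 against 226 CPM at E15.5. In single cells at E10.5, Mcm6 in A ran from 0 through a median of 137 to 936 CPM and B from 0 through a median of 361 to 1909.6 CPM, so the groups overlapped. Mcm2 had 244 against 318, 77.4 against 124 and 60.6 against 146 CPM, and Mcm4 169 against 150.5, 50.0 against 134 and 84.4 against 112 CPM. 2810417H13Rik, now called Pclaf, which binds PCNA, had 712 against 606.1 CPM at E10.5, 618.7 against 32.8 CPM at E12.5, then 622.9 against 53.6 CPM at E15.5. Gmnn, geminin, which blocks relicensing until mitosis ends, had 147 against 103, 144 against 37.9 and 97.9 against 19.0 CPM.

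The summed level of nucleotide supply genes was lower in A at E10.5 and higher later. None of the 11 genes was called in either direction at E10.5, while 6 and 5 were called higher and none lower at the later stages. The genes of this list summed to 1786 CPM in A and 2267 CPM in B at E10.5, 1761 and 984 CPM at E12.5, then 1414 and 589.8 CPM at E15.5. B was higher in 3 of 3 pools at E10.5, and A in 4 of 4 at E12.5, then 5 of 5 at E15.5. Rrm2, the regulated subunit of ribonucleotide reductase, had 225 against 326 CPM at E10.5, 142 against 37.6 CPM at E12.5, then 128 against 7.75 CPM at E15.5. Tk1, thymidine kinase, had 79.6 against 43.6, 136 against 49.1 and 145 against 10.2 CPM, with A higher in 12 of 12 pools. Of 17 repair genes, 1, 7 and 8 were called higher and 2, 0 and 0 lower, with median ratios of 0.02, 0.86 and 0.84. Among all genes 15.47%, 12.03% and 11.24% were called higher and 9.787%, 15.47% and 10.81% lower, so the 2 lower calls lie near that share. The summed level of the repair list was higher in A in 0 of 3 pools at E10.5, 4 of 4 at E12.5, then 5 of 5 at E15.5. Fancd2 was the repair gene called at all 3 stages, but 5 cells of A at each stage held all of its counts there and A stood higher in 8 of 12 pools.

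Among G1/S regulators, the D-type cyclins named were not called higher in A at any stage. Ccnd3, cyclin D3, had 233 against 343 CPM at E10.5, 317 against 457 CPM at E12.5, then 340.5 against 556 CPM at E15.5. Its ratios of -0.55, -0.52 and -0.70 (mean -0.59 ± 0.10) missed a call at each stage, and A was lower in 10 of 12 pools. Ccnd1, cyclin D1, had 305 against 403, 283 against 253 and 159 against 388 CPM, and was called lower at E15.5. E2f7, a repressor among the E2F factors, had 31.1 against 70.8 CPM at E10.5, 53.4 against 7.06 CPM at E12.5, then 65.1 against 1.57 CPM at E15.5. Of the 23 genes, 2, 8 and 6 were higher and 3, 1 and 1 lower, and none held at all 3 stages. The shares of all genes were 15.47%, 12.03% and 11.24% higher and 9.787%, 15.47% and 10.81% lower.

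Of inhibitors and quiescence genes, 3 of 15 were higher at each stage, and 0, 6 and 3 were lower. Over all genes 15.47%, 12.03% and 11.24% were called higher and 9.787%, 15.47% and 10.81% lower, and of these counts the 6 genes lower at E12.5 lay farthest from the share over all genes. Cdkn3, a phosphatase of cyclin-dependent kinases that is itself transcribed late in the cycle, was higher at all 3 stages, at 63.8 against 10.47, 32.6 against 9.42 and 61.9 against 13.3 CPM, though 1 cell gave 98.5%, 93.8% and 86.0% of its counts in B. Cdkn1c, the inhibitor p57, had 433 against 331 CPM at E10.5, 1329 against 2181 CPM at E12.5, then 1451 against 3031 CPM at E15.5. At E15.5, Cdkn1c in cells of A ran from 36.8 through a median of 1019.9 to 7575 CPM and B from 18.4 through a median of 2378 to 10587 CPM, and 39 of 50 cells of B passed the median of A. Of 12 replication-dependent histone genes, 2, 5 and 8 were called higher and 3, 0 and 0 lower, with median ratios of -0.47, 0.88 and 1.27. The linker histones Hist1h1b and Hist1h1e were called higher at all 3 stages, with Hist1h1e at 66.1 against 23.8, 88.2 against 26.3 and 63.6 against 13.0 CPM and A higher in 12 of 12 pools.

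Few growth and metabolism genes were called, where between 9.787% and 15.47% of all genes were called in each direction at a stage. None of 24 ribosomal protein genes and none of 12 ribosome biogenesis genes was called at any stage, with median ratios from -0.23 to -0.08 and from -0.19 to 0.16. Of 14 glycolysis genes none was higher and 0, 1 and 2 were lower, with medians of -0.19, -0.14 and -0.16, and of 16 respiratory chain genes 1, 0 and 0 were higher and none was lower. Smaller differences are not seen by these calls. At E10.5 the ribosomal protein genes summed to 44703 CPM in A and 51020 CPM in B. Their pools ran from 43613 to 45950 CPM in A and from 49978 to 51536 CPM in B. The ribosome biogenesis and glycolysis sums were also higher in A in 0 of 3 pools there. At the later stages the pools of these 3 lists went both ways. These are shares of a cell's RNA, and the RNA content of a cell is not measured.

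**Figure D5:**
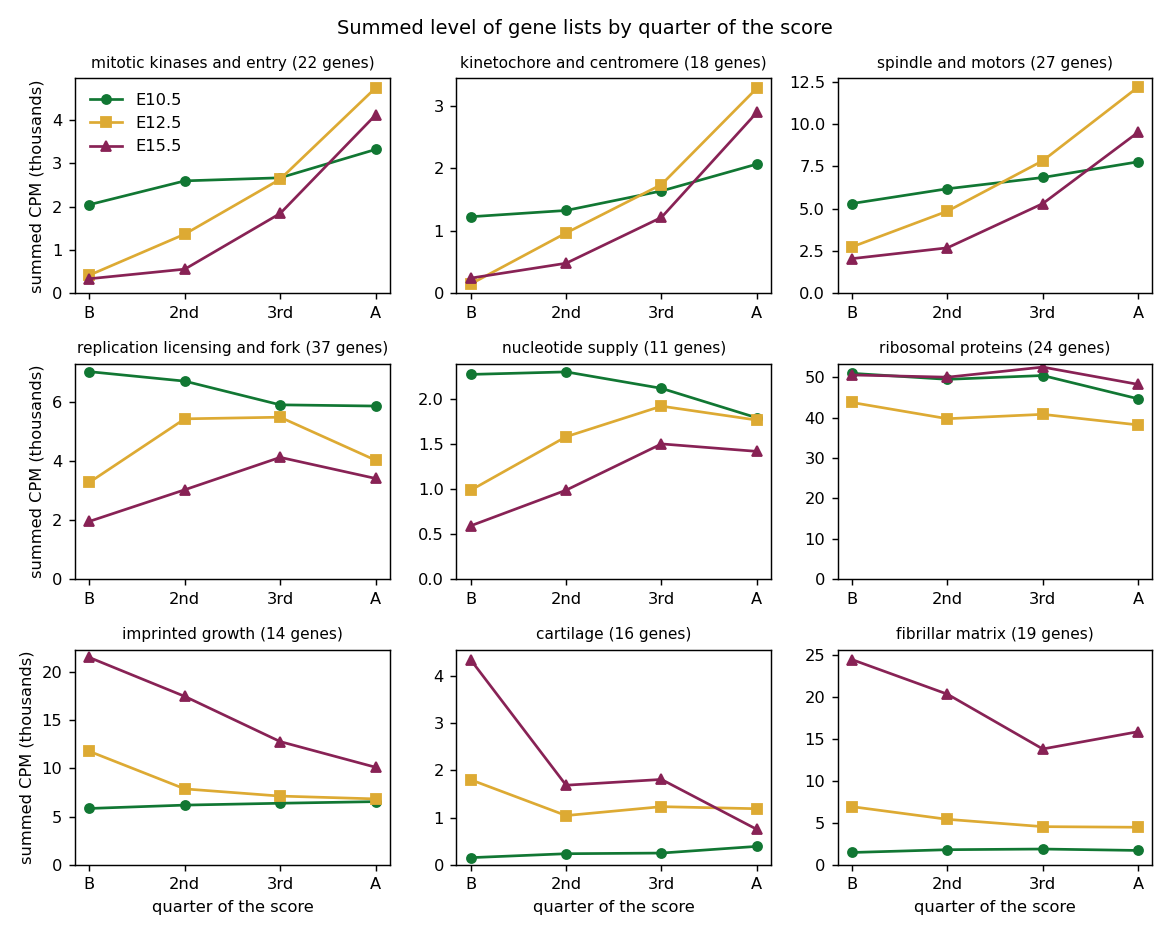
Summed CPM (in units of 1000) of 9 gene lists in the 4 groups of the score, from B to A, with 1 line per stage. The mitotic lists climb to A at every stage, the replication and nucleotide lists peak before A at E12.5 and E15.5, and the imprinted growth, cartilage and fibrillar matrix lines of E15.5 are highest in B.

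The genes called lower at all 3 stages held 2 members of the lists, Ung and the endothelial receptor Kdr. Few of the 47 were called again under some other settings: 9 with the log2 score, 9 without the highest cell of each gene and 1 against the third group. Of the 47, 5 had at least 50 CPM and a count in 20% of cells of B at each stage. Kctd12, an auxiliary subunit of GABA-B receptors (chr14:102976581-102982637, minus strand), was lower in A in all 12 pools. It had 29.6 against 92.7 CPM at E10.5, 55.0 against 164 CPM at E12.5, then 179 against 405 CPM at E15.5, with ratios of -1.50, -1.50 and -1.16 (mean -1.38 ± 0.20). Its cells overlapped widely, and at E15.5 17 of 50 cells of A lay above the median of B, 194 CPM. Commd7, a COMM domain protein (chr2:153616933-153632781, minus strand), had 40.0 against 148, 46.7 against 111 and 56.5 against 140.4 CPM, and was lower in 9 pools. At E10.5 25 of 29 cells of B held more Commd7 than the median cell of A. Pmm1, a phosphomannomutase, Chmp2b, a subunit of the ESCRT-III membrane complex, and Zdbf2, a paternally expressed imprinted gene, had mean ratios of -1.34, -1.74 and -1.19. Their median cells held 0 CPM in A or B at most stages, so those ratios rest on few cells, and without pool 3 the mean of Pmm1 was -0.65. Kdr was carried by 1 cell of B at E10.5 (99.4% of its counts) and at E12.5 (99.0%).

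Agreement was wider between E12.5 and E15.5, where 399 genes were higher at both and 346 lower at both. Of the 399, 105 (26.3%) were also higher at E10.5 and 39 (9.77%) were lower there, beside 15.47% and 9.787% of all genes, with a median ratio of 0.31. Of the 346, 47 (13.6%) were also lower at E10.5 and 74 (21.4%) were higher, with a median of 0. More of them were higher than lower at E10.5, but so were more of all genes, 15.47% against 9.787%. Imprinted growth genes, a set that restrains or drives fetal growth, summed to 11774 CPM in B and 6839 CPM in A at E12.5, then to 21515 and 10124.5 CPM at E15.5, with B higher in 4 of 4 and 5 of 5 pools, while at E10.5 they summed to 5847 and 6556 CPM. Of the 14 genes 0, 3 and 8 were called lower and 2, 1 and 0 higher. Shares over all genes were 9.787%, 15.47% and 10.81% lower and 15.47%, 12.03% and 11.24% higher, so the 2 higher calls at E10.5 lie near that share. The lower calls were 1, 1 and 1 with every cell weighted equally, and 1, 1 and 3 with cells thinned to 50000 counts. Under both settings the sum stayed higher in B at E12.5 and E15.5. H19, the long RNA of the Igf2 locus (chr7:142575529-142578143, minus strand), had 939 CPM in B and 1093 CPM in A at E10.5, 2045 and 953 CPM at E12.5, then 5100 and 2207 CPM at E15.5. At E15.5 its pools ran from 4683 to 5941 CPM in B and from 1414 to 3947 CPM in A and did not overlap, while its cells did. Igf2, insulin-like growth factor 2, had 1033 and 1129, 2142 and 1171, and 3410.2 and 1549.8 CPM in B and A.

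Cartilage genes were lower in A at E15.5, where 15 of 16 were called (10.81% over all genes), with a median ratio of -2.26. They summed to 4337 CPM in B, 1684 and 1806 CPM in the second and the third group and 749 CPM in A. Col2a1, the main collagen of cartilage, had 1831 CPM in B and 135 CPM in A, and among its cells A ran from 0 through a median of 21.9 to 1562 CPM and B from 0 through a median of 159 to 13453 CPM. Acan, aggrecan, had 142 against 6.05 CPM, and Matn1, matrilin 1, 69.6 against 0.224 CPM. Without pool 9 the log2 ratios of Acan and Matn1 went from -3.73 to -2.25 and from -3.84 to -2.37. The summed level of the list was higher in B in 5 of 5 pools. At E12.5 the list summed to 1799 CPM in B and 1187 CPM in A, with A higher in 2 of 4 pools. At E10.5 the direction of its sum was opposite, 151 CPM in B and 389.8 CPM in A, with Sox9, the master factor of cartilage, at 9.38 and 85.7 CPM, while Acan and Matn1 had no count. The median ratio was 0 there, and 3 of the 16 genes were called higher, beside 15.47% of all genes. At E10.5 7 of the 16 had no count in A and 8 none in B. A lower share of cartilage cells in A and less cartilage RNA per cell cannot be told apart here. Fibrillar matrix genes summed to 1469 CPM in B and 1712 CPM in A at E10.5, 6937 and 4478 CPM at E12.5, then 24490 and 15886 CPM at E15.5, where pools of B ran from 12677 to 44373 CPM. Of the 19 genes 1, 6 and 1 were called lower and 5, 0 and 0 higher. Shares over all genes were 9.787%, 15.47% and 10.81% lower and 15.47%, 12.03% and 11.24% higher. The lower calls at E10.5 and E15.5 therefore lay below the share over all genes.

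Some large ratios came from single cells of another type. Ttn, titin, had 1552 CPM in B and 5.76 CPM in A at E12.5, where 98.7% of the counts in B came from 1 cell, and without pool 7 its log2 ratio was 0.05. The muscle differentiation list summed to 6818 CPM in B and 143 CPM in A there, and its pools of B ran from 33.0 to 29014 CPM. Without the cells set aside by markers, A was higher in this list, by 1.18 on the log2 scale. Cma1, a mast cell protease, had 461 CPM in A at E15.5, and 1 cell gave 97.3% of it; without pool 12 its log2 ratio fell from 5.18 to 0.04. Cells set aside by skin markers were more frequent in A at E15.5, 11 against 5 in B, and the skin list summed to 2365 and 1263 CPM. Without the set-aside cells, and with the rest cut again into 4 groups, 131 genes were higher and 50 lower at all 3 stages, and 80 and 26 of these were among the 105 and 47.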

How the data were processed

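Cells were captured on the Fluidigm C1 and libraries made with Nextera XT, per the labels' protocols. The deposited values are whole-number counts for each gene, and the submitters' processing notes name Bowtie2, featureCounts and mm10. Versions, annotation, strand and any molecular identifiers: not given in the sources used here. Symbols listed more than once (298) were summed, or kept once where identical. The 480 cells shared no barcode, and 3 with fewer than 1000 detected genes were left out.

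Genes with a count in 10 kept cells were compared with python 3.11.15, numpy 2.4.6, pandas 2.3.3 and scipy 1.17.1, by code tested on simulated data. Cells are not replicates and each stage was 1 sample, so no test was run. In each direction up to 12 genes called at all 3 stages are named, ranked by their smallest stage ratio, with 50 CPM and a count in 20% of cells in the higher group. Up to 5 genes per stage and direction, and up to 4 per list and direction with 20 CPM, were also picked, and not all of these are named. The members and lists were chosen with earlier results of these data known. Gene positions are from the GENCODE annotation of mm10 and promoters from RefSeq (GRCm38.p6). Intervals cover counting error only. Alternatives changed the added CPM, scaling, filters, split, score, depth, cells and pools.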

Additional observations from a re-analysis of the deposited data

Results flagged for a closer look

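The list of 11 nucleotide supply genes was flagged because A and B differed in opposite directions at different stages. The log2 ratio of its summed level, A over B, was -0.3438 at E10.5 (lower in 3 of 3 pools), 0.8399 at E12.5 (higher in 4 of 4) and 1.2616 at E15.5 (higher in 5 of 5). The cartilage list was flagged likewise, at 1.3683 at E10.5, with A higher in 3 of 3 pools, and -2.5331 at E15.5, with A lower in 5 of 5. Its E10.5 value is of the sum only. The median ratio of its genes was 0 there, and 3 of 16 were called higher, beside 15.47% of all genes. At that stage 7 of the 16 had no count in A and 8 none in B. Arid5b, a chromatin-associated transcription factor, had 87.8 CPM in A and 2.81 CPM in B at E10.5, a ratio of 3.5697, and 28.7 against 175 CPM at E12.5, a ratio of -2.413. None of these differences between stages was tested.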

How the results depend on the processing

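Of 1551 recomputed values of 47 results of genes picked at all 3 stages or at 1 stage, under 33 settings, 1363 kept their sign within 1 SD of the main value. Another 171 kept it but moved farther, and 17 reversed. The SD was over the 3 stages for mean ratios and over library pools for single stages, so values within it could still shift. Calls at all 3 stages, higher and lower, were 195 and 120 with 1 CPM added, 38 and 2 with 20 added, 66 and 26 with cells cut into 3 groups, and 229 and 122 with 10 groups. Lower calls were 17 without the highest cell of each gene. Agreement over 2 stages gave 399 and 346 without E10.5, 286 and 173 without E12.5, and 318 and 235 without E15.5. With 20 CPM added, higher and lower calls were 753 and 473 at E10.5, 610 and 806 at E12.5, and 501 and 437 at E15.5. With 10 groups they were 3071 and 2077 at E10.5, 2694 higher at E12.5, and 2419 and 2311 at E15.5. Leaving out each library pool gave 93 to 118 genes higher and 40 to 62 lower at all 3 stages. It moved Ttn at E12.5 between -7.6183 and 0.0499, Mylpf between -6.9051 and 0.8222 and Actc1 between -7.0614 and 2.4699, and Actc1 at E15.5 between -5.0733 and 1.422. Against the third group, chosen after seeing the data, 23 genes were higher. Of the 105 genes called higher, all kept a mean ratio above 0 in every setting except that one, where 96 did. Of the 47 called lower, at least 45 kept a mean below 0 in every setting except that one, where 41 did. Both sets were picked for their ratios in nearly the same cells, so keeping the sign was close to fixed in advance and says little about stability.

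Cartilage at E10.5 was 1.9171 on the log2 scale with every cell weighted equally. Without the cells set aside by markers, muscle differentiation was 1.1822 at E12.5 and 0.7605 at E15.5, and endothelium 1.9306 at E10.5 and -0.4152 at E12.5. Actc1 at E15.5 was 0.496 without its highest cell, 0.955 with 10 groups and 1.5678 without set-aside cells, and the upper end of its range, 1.422, came without pool 9. Actc1 at E12.5 was 1.0879 without set-aside cells and 1.4726 against the third group, and Mylpf 0.7089 and 0.5226. The upper ends of the ranges of Actc1, Mylpf and Ttn at E12.5 came without pool 7. Cma1 at E15.5 was -0.9837 with a log2 score, -0.5561 with a score without Mki67 and -0.7198 against the third group. Rbm41 at E10.5 was 1.5811 with the log2 score, Wnt7b at E12.5 0.1432 with a score without Top2a, and the mean of Pmm1 0.0545 against the third group. Apart from the settings that remove cells or change the added CPM, the cause was not tested. No paired analysis was possible because no test was run; A against B within each library pool is given as counts of pools. Depth limits genes under 5 CPM, whose ratios the added value pulls towards 0.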

Other observations

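Limb bud mesenchyme genes, transcription factors of the early bud, were called higher in A for 3, 7 and 3 of 17 genes and lower for 1, 1 and 2 at the 3 stages in order of age. At E12.5 they summed to 3686 CPM in A and 2270.3 CPM in B, with A higher in 3 of 4 pools, while at E15.5 they summed to 1486 CPM in A and 1619 CPM in B, with A higher in 1 of 5. Over all genes 15.47%, 12.03% and 11.24% were called higher and 9.787%, 15.47% and 10.81% lower. The higher counts at E10.5 and E15.5 lie near those shares, and the lower counts lie near or below them. Immediate-early genes, which respond to dissociation and growth signals, summed to 3191 CPM in A and 4506 CPM in B at E12.5, with A lower in 4 of 4 pools. At E10.5 they summed to 1419.8 and 1024 CPM, with A higher in 3 of 3. At E15.5 they summed to 6069 and 6776 CPM, with A higher in 2 of 5. The tendon list summed to 649 and 649 CPM at E12.5 and 1142 and 1086 CPM at E15.5 in A and B. Heat shock genes summed to 10189 and 9064 CPM at E12.5 and to 8606 and 8321 CPM at E15.5.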
